A study of Mus musculus with 78 samples.

Results

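The genes described here are Glul, Aqp4, Kcnj10, Clu, Dkk3, Apoe, Vim and Gfap, 8 genes named in the retina literature in connection with Müller glia. They were taken by symbol, as the probe sets that name exactly 1 of these genes, and each gene had 1 such probe set: 8 of the 19446 probe sets with 1 symbol, or 8 of 19301 genes. Their levels were measured on 78 Affymetrix gene arrays, arranged as 26 sets of 3 biological replicates from 22 transgenic mouse lines with fluorescent retinal cells. None of the 22 lines is labelled as a Müller glia line, so each level below is that of RNA from cells sorted for another identity. Each sample held 200 cells, sorted from adult retina after a papain dissociation of 15 min through gates on fluorescence, scatter and pulse width, and the labels do not give the number of mice behind a sample.

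The lines fall into 6 classes by the labelled cell type. Of the photoreceptor lines (3 lines, 15 arrays), b2-Cre × Rosa26-LSL-RFP marks rods, and Tg(Chrnb4-EGFP)1Gsat and d4-Cre × Rosa26-LSL-RFP mark cones. Gja10-Cre × Rosa26-LSL-RFP is the 1 horizontal cell line (3 arrays). The bipolar lines (4 lines, 12 arrays) are mGlur6-Cre × Rosa26-LSL-RFP, Kcng4-CreERT2 × Rosa26-LSL-RFP, Pcp2-EGFP and Lhx4-EGFP. The amacrine lines (9 lines, 33 arrays) carry EGFP under Arc, Igfbp2, Rgs5, Chrna3, 6430514L14Rik (the Fam81a line), Fbxo32 or Ier5, or combine Rosa26-LSL-RFP with Crh-Cre or with Cre at Chat (the ChAT line, starburst cells). The ganglion cell lines (4 lines, 12 arrays) are PV-CRE crossed to ThyStopY, Drd4-EGFP, Grik4-Cre × Rosa26-LSL-RFP and mOpn4-Cre × Rosa26-LSL-RFP. Csf2rb2-EGFP is the 1 microglia line (3 arrays). The colour label of the Drd4 samples says RFP although the line carries EGFP. All mice are labelled with a mixed genetic background, an FVB/N-Swiss Webster hybrid together with C57BL/6J, and some founders came from a stock known for a recessive mutation that degenerates photoreceptors, which was backcrossed before the second generation was used. A group is thus defined by a promoter and a sort gate, and in a Cre cross the fluorophore reports past as well as present Cre activity.

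Müller glia are the radial glia of the retina, and their processes run through all its layers and wrap neuron bodies, synapses and vessels. They take up glutamate and GABA from synapses, buffer potassium, move water and return retinoids and metabolites to neurons. By role, Glul (glutamine synthetase) turns glutamate into glutamine, Kcnj10 (the potassium channel Kir4.1) and Aqp4 (the water channel aquaporin 4) serve ion and water balance, and Clu (clusterin) and Apoe (apolipoprotein E) are secreted lipid-binding glycoproteins. Dkk3 is a secreted protein of the Dickkopf family of Wnt pathway modulators, and Vim (vimentin) and Gfap (glial fibrillary acidic protein) are intermediate filament proteins. In mouse retina Gfap marks astrocytes at rest and is known to be induced in Müller glia after injury.

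The genes lie apart in the genome (RefSeq, GRCm38.p6): Glul at chr1:153899929-153909723, Kcnj10 at chr1:172341210-172374085, Vim at chr2:13574311-13582826, Apoe at chr7:19696244-19701310, Dkk3 at chr7:112116019-112159482, Gfap at chr11:102887336-102897200 and Clu at chr14:65968483-65981548. The RefSeq promoter table held 5 of the 8 genes, namely Glul, Kcnj10, Vim, Apoe and Gfap. The 250 bases before the start are shown for Glul, Kcnj10 and Vim, members with a single start in the table that were among the highest in the same ganglion line below, and for Gfap, which stayed near background on every array. Apoe, also high in that line, has 3 starts there and is not shown. The windows, each 5′ to 3′ on the gene's own strand, are chr1:153899679-153899928 (plus strand) for Glul, chr1:172340960-172341209 (plus strand) for Kcnj10, chr2:13574061-13574310 (plus strand) for Vim and chr11:102897201-102897450 (minus strand) for Gfap. Capitals mark matches to the motifs listed after the sequences.
Glul: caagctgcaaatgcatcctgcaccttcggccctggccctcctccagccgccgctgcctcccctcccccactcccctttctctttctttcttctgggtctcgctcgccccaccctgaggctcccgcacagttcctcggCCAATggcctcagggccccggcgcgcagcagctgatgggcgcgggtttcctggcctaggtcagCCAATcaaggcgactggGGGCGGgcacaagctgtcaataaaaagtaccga
Kcnj10: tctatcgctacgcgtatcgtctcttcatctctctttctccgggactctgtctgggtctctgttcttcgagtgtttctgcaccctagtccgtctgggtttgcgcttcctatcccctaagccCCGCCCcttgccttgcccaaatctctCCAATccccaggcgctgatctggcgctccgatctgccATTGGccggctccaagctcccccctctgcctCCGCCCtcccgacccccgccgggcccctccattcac
Vim: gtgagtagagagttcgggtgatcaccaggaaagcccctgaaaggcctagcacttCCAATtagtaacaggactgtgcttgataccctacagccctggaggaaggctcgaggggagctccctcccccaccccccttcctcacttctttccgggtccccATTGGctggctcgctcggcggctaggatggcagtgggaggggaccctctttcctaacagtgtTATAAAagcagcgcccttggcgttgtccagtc
Gfap: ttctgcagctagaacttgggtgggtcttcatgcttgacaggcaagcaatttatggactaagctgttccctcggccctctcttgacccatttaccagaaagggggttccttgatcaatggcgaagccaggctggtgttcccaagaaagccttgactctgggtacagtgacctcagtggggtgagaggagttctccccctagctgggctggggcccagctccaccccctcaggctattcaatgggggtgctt
Motifs were searched on both strands as letters: the TATA box as TATAAA, the CCAAT box as CCAAT, the GC box as GGGCGG, the AP-1 site as TGACTCA with C or G in its middle, the STAT site as TTCCNGGAA, the NFI palindrome by its consensus, and the SOX motif as ACAATG with A allowed for its T. Glul had CCAAT at 113 and 50 bases and a GC box at 33 bases before the start. Kcnj10 had GC boxes at 130 and 36 bases and CCAAT boxes at 104 and 67 bases, and Vim had CCAAT boxes at 196 and 94 bases and a TATA box at 32 bases. The Gfap window held none of these letters, and of the 3 Apoe windows 1 held SOX matches and 1 TATA boxes. Among all 32851 promoter windows of this length, 33.8% held a CCAAT box, 32.7% a GC box, 12.4% a TATA box, 25.2% a SOX match, 4.46% an AP-1 match, 0.913% a STAT match and 0.0365% an NFI match. The motifs that Glul, Kcnj10 and Vim carry are thus common ones, and a match is a description of letters, not a binding site.

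Values below are the deposited intensities on a linear scale, where the median of all probe sets and arrays was 9.01. The lowest values are packed into a tail whose upper end, 3.99, was taken as a floor, and values below it have no order. Levels of different genes come from different probes and are not compared with each other. Differences are between means of log2 values, so 1 unit is a doubling. A gene was tested where at least 1 set mean lay above 9.01, which 15102 genes and 7 of the 8 members did, Gfap being the exception. A difference was called where the adjusted p of limma's moderated test (Benjamini-Hochberg over the 15102 genes) was below 0.05 and the log2 difference was at least 1. Class comparisons set the lines of 1 class against the mean of the other 5 classes, with the line mean as the unit. The horizontal and microglia classes hold 1 line each, so in their comparisons the spread comes from the lines of the other 4 classes, and the lone line is assumed to vary as those do. Line comparisons set 1 line against the average of its class without it, with the array as the unit. In such sorted samples, fewer cells of a type and less RNA per cell cannot be told apart.

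Among tested markers, 6 of 6 for ganglion cells (where 4.23% of all tested genes were called), 5 of 5 for bipolar cells (2.66%), 9 of 9 for microglia (9.32%), 5 of 6 for amacrine cells (2.77%) and 3 of 4 for horizontal cells (1.21%) were called higher in their class. For rods 3 of 7 were called higher in photoreceptors (6.36%), a class that also holds the cone lines. Within photoreceptors 4 of 7 rod markers were called higher in b2, where 10.7% of genes were called. Arrays of a set agreed least in the Crh line, where the lowest correlation between 2 arrays was 0.70, and it was below 0.8 also in Chrna3, Chrnb4, Drd4 and Lhx4. PV arrays are all of batch 1 and the other 3 ganglion lines all of batch 3, so within ganglion cells PV and batch cannot be told apart.

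Of the 8 members, 5 were above the median of all values on most arrays and 3 on few or none. Clu (0.66 to 1601, median 311), Apoe (38.0 to 4902, median 182), Glul (1.36 to 2267, median 64.7), Vim (4.92 to 1131, median 26.3) and Dkk3 (12.9 to 156, median 29.4) exceeded 9.01 on 77, 78, 74, 71 and 78 arrays of the 78. Kcnj10 (3.63 to 21.0, median 7.27) and Aqp4 (4.23 to 58.9, median 5.80) did so on 18 and 16 arrays, and Gfap (3.54 to 8.50, median 5.67) on 0. The 22 lines differed for 7 of the 7 tested members by limma's moderated F test, with adjusted p between 0.000299 for Aqp4 and 9.31e-17 for Dkk3, where 80.1% of all tested genes also differed. The Drd4 ganglion line was the highest of 22 lines for 5 of the 8 genes and among the first 3 for 7, and the Grik4 ganglion line was among the first 3 for 5. The remaining highest levels belonged to Gja10 horizontal cells for Vim, Csf2rb2 microglia for Apoe and Rgs5 amacrine cells for Dkk3.

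**Figure D1:**
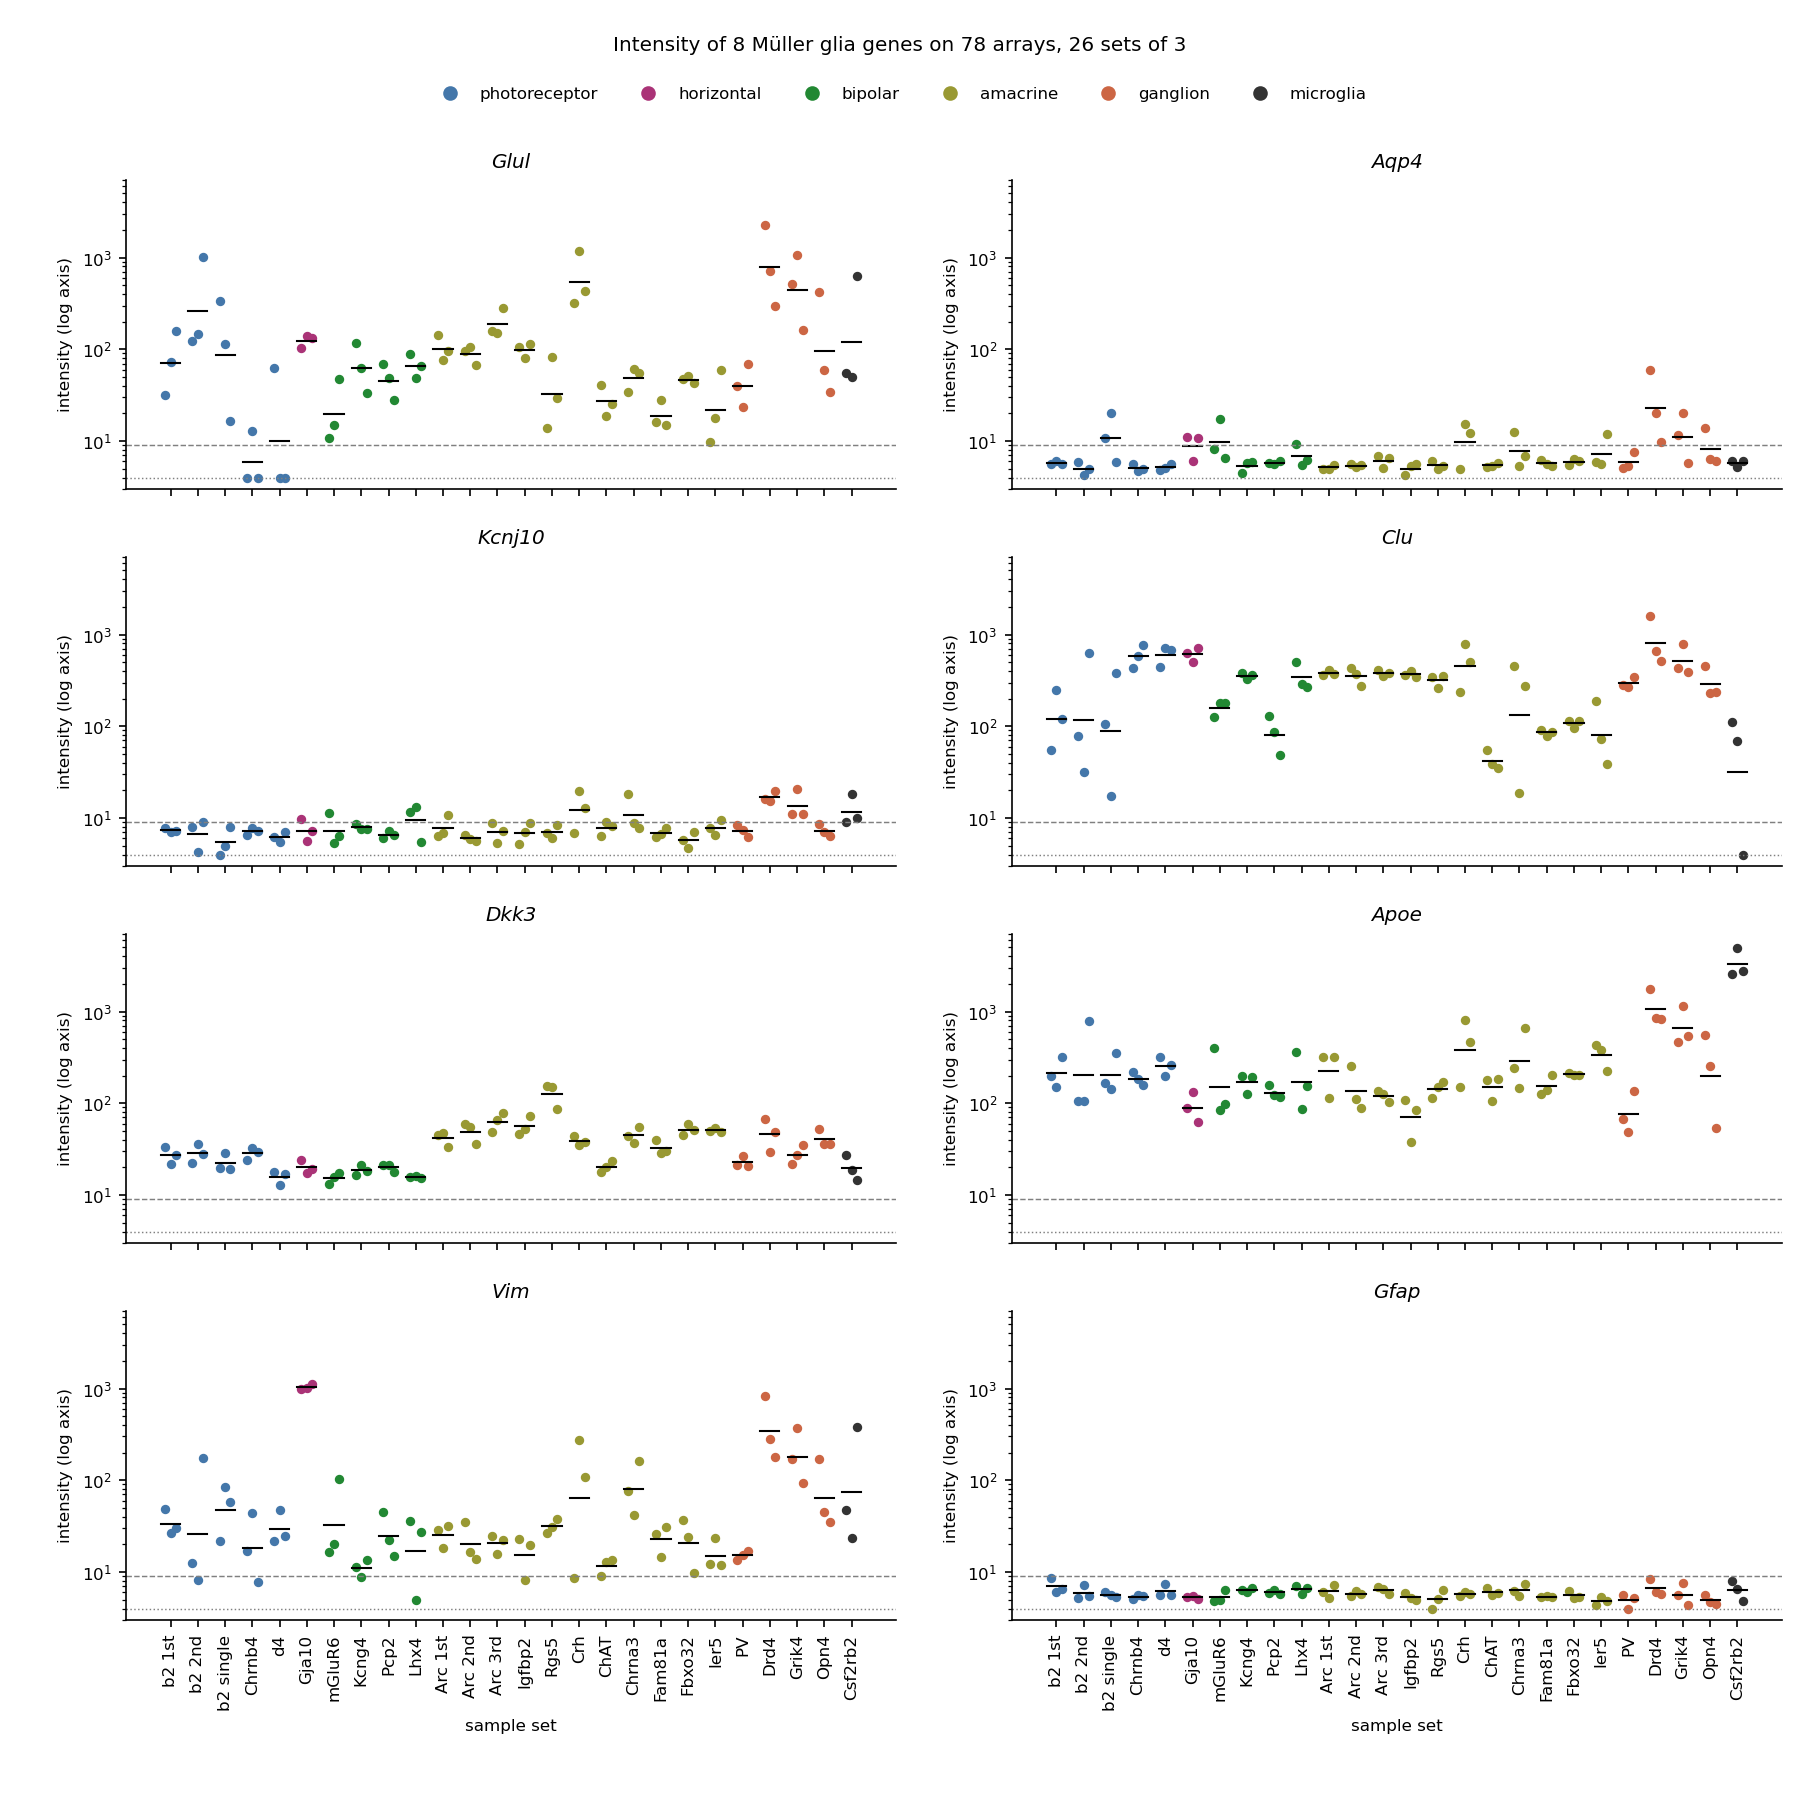
Intensity of the 8 genes on each of the 78 arrays (log axis, values below 3.99 raised to it), by set and coloured by class, with bars at the geometric mean of a set, a dashed line at the median of all values, 9.01, and a dotted line at 3.99. Vim stands highest in Gja10, Apoe in Csf2rb2 and Dkk3 in Rgs5, each clear of all other arrays, while Gfap stays below 9.01 throughout.

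Replicates of 1 set often differed more than most genes do. The SD within sets (log2, values raised to the floor) was 1.18 for Glul, 1.13 for Vim, 1.06 for Clu and 0.81 for Apoe, against a median of 0.40 over tested genes, and 99.1%, 98.8%, 98.2% and 92.9% of tested genes had a lower one. The highest array was at least 2 times the lowest in 17 of 26 sets for Glul, 17 for Vim, 15 for Apoe and 10 for Clu. Dkk3 was the steadiest of the 7 tested members, with an SD of 0.30 and a ratio of at least 2 in 1 set, Drd4. Gfap, near background on every array, had an SD of 0.20 and such a ratio in 0 sets. Few neighbours in the order of lines were separated: of 21 neighbouring pairs, the arrays did not overlap in 2 for Dkk3, in 1 each for Glul, Clu, Apoe and Vim, and in 0 for Aqp4, Kcnj10 and Gfap. Lines sorted by their mean lie close to their neighbours for any gene, and these pairs were not counted for all tested genes. The counts thus limit how the order of lines below can be read, and are no trait of the members.

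Glul, the enzyme that detoxifies synaptic glutamate in Müller glia, ranged over the lines from a geometric mean of 782 in Drd4 to 4.26 in the Chrnb4 cones. Drd4 was followed by the Crh amacrine line (543) and Grik4 (445), then by a step to Gja10 (124), Csf2rb2 (120) and Arc (119). The lowest lines were both cone lines, at 4.98 in d4 and 4.26 in Chrnb4, below Fam81a at 18.9. These cone means rest on values below the floor, and with such values raised to it they were 9.97 in d4 and 5.87 in Chrnb4, still the lowest. Within the ganglion class the arrays read 2267, 714 and 296 in Drd4, 519.5, 1057 and 161 in Grik4, 421, 59.5 and 34.1 in Opn4, and 39.4, 23.3 and 69.2 in PV. The Drd4 and Grik4 arrays were all above the PV arrays, and Opn4 had 1 high array and 2 in the PV range.

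Rods and cones differed in Glul. The 9 b2 arrays read 32.1, 72.7 and 157 in the first set, 123, 146 and 1009.6 in the second and 337, 114 and 16.4 in the set labelled single. The cone arrays read 2.52, 12.7 and 2.42 in Chrnb4 and 62.2, 1.46 and 1.36 in d4, so that 4 of the 6 were at or below the floor. All but 1 cone array, the first of d4, lay below every rod array. The difference of b2 from the mean of both cone lines was called at +4.67 (SE 0.65, adjusted p 9.43e-08), and with values raised to the floor it was 3.94, a 15.3-fold difference. In that comparison 10.7% of tested genes were called. Chrnb4 was called lower than the other photoreceptor lines (geometric mean 4.26 against 24.2, difference -2.50, SE 0.82, adjusted p 0.0462), a call that was lost when any 1 of 10 single arrays was left out, with an adjusted p of up to 0.236, and in the fit with the replicate block, at 0.0505. Of all tested genes 5.05% were called there. For d4 the difference was -2.17 (adjusted p 0.0731), which missed the threshold, and without the first d4 array it was called lower (adjusted p 0.00115), with both remaining arrays below the floor and thus no size to give.

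In the Crh amacrine line Glul read 321, 1168 and 428, against 9.71 to 279 on the 30 arrays of the other 8 amacrine lines. The groups did not overlap, with the third Arc set (158, 149.8 and 279) the nearest below. The difference was +3.69 (SE 0.75, adjusted p 8.35e-05), in a comparison where 18.3% of tested genes were called, and it was called whichever single array was left out. Summed rod markers were also high in the Crh arrays, at 286, 2381 and 1395, and replicate 2 was the highest for both Glul and the rod sum. Such a sum weighs bright genes most. The Crh line mean was 840 for Gnat1 but 1.91, below the floor, for Pde6b, against 1998 and 871 in b2. For Cnga1, Gngt1, Nrl, Pde6g and Sag, Crh was neither the highest nor the second highest line. The part of rod signal in the Glul difference was not tested.

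The other genes of glutamate recycling moved in their own ways. Of 9 tested genes on that list, which includes Glul, Slc1a2 (a glial-type glutamate transporter that cones and bipolar cells of the mouse retina also use) and Slc38a3 (a glutamine transporter) were called higher in photoreceptors, by 1.86 and 2.72. Slc38a3 was called higher in bipolar cells by 2.97 and lower in amacrine cells, at -1.57, while Slc1a1, a neuronal glutamate transporter, was called higher in horizontal cells by 1.78. Glul itself was called in no class comparison. In photoreceptors it had a difference of -2.78 (SE 1.04, adjusted p 0.0926), with 13.5 against 93.0. In b2 rods, Slc38a1, Slc1a2 and Slc1a7 were called lower than in cones, the opposite direction to Glul, with Slc1a2 at -2.24. The share of all tested genes called was 6.36% in photoreceptors, 2.66% in bipolar, 2.77% in amacrine and 1.21% in horizontal cells. In b2 it was 10.7%.

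Kcnj10 and Aqp4, the channels through which Müller glia are known to pass potassium and water to vessels and vitreous, were near background in most lines. Aqp4 read 58.9, 20.0 and 9.84 in Drd4, against 11.8, 20.4 and 5.78 in Grik4, 13.9, 6.35 and 6.11 in Opn4 and 5.11, 5.29 and 7.55 in PV. The 3 Drd4 arrays were all above 9.01, and no PV array was. Aqp4 lies at chr18:15389394-15410982 (GRCm38.p6). Drd4 was called higher than the other ganglion lines (22.7 against 8.12, difference +1.48, SE 0.33, adjusted p 0.00166). Outside ganglion cells, single arrays of mGluR6 (17.4), the b2 single set (20.0) and Crh (15.2) reached such levels with lower replicates beside them. Aqp4 was called in no class comparison, and no other of the 9 tested aquaporins was called in Drd4. Aqp11 was called higher in bipolar cells, by 1.88, and Aqp1, a water channel, in b2 against cones, by 2.08.

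Kcnj10 was called in no comparison with all arrays in the fit. It read 16.0, 15.2 and 19.8 in Drd4, against 11.0, 21.0 and 11.0 in Grik4, 8.60, 7.12 and 6.37 in Opn4 and 8.36, 7.48 and 6.16 in PV. The Drd4 arrays were steady and above all but 1 of the 9 others, and the difference of +0.91 (SE 0.26, adjusted p 0.0169) passed the adjusted p but not the size threshold, which it passed at +1.01 (adjusted p 0.00584) without the second Grik4 array. The next lines in order were Crh at 12.1, with arrays of 6.94, 19.9 and 12.8, and Csf2rb2 at 11.8, with 8.98, 18.1 and 10.1. Without the first Crh array, Kcnj10 was called higher in Crh than in the other amacrine lines (+1.12, adjusted p 0.000759), as were Aqp4 (+1.20, adjusted p 0.00332), Clu (+2.12, adjusted p 0.0378) and Vim (+2.93, adjusted p 0.00078). The share of all tested genes called in that fit was not counted. It was 18.3% with all arrays, and more genes were called in Crh without replicate 1 of every set. These added calls are thus no trait of the members. Among the 12 tested inward rectifiers, Kcnj8 was called higher in Rgs5, by 2.16, and in Grik4, by 1.87, and Kcnj13, a channel of the pigment epithelium, in Grik4 by 3.22. Kcnj8 is known as a pericyte gene. The summed pericyte markers other than Kcnj8 and Rgs5 were 114, 94.8 and 174 in Rgs5 and 31.3, 130 and 189 in Grik4. The median over the sets was 33.6, so the sum was high on all Rgs5 arrays and on 2 of the 3 Grik4 arrays. Within that sum Acta2 had its highest line means there, at 94.0 in Rgs5 and 43.5 in Grik4, against a median line of 5.45. Abcc9, Anpep, Cspg4 and Pdgfrb had neither line as their highest or second highest.

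Clu, the secreted chaperone clusterin, was strong in neurons of most classes. Its geometric mean was 814 in Drd4, 611 in Gja10, 600 in d4 and 582 in Chrnb4, and lowest in ChAT (42.2) and Csf2rb2 (17.3). The 3 Csf2rb2 microglia arrays read 112, 69.3 and 0.66, against 17.5 to 1601 on the 75 other arrays, so the class overlapped the rest. Microglia, a single line, were called lower than the other classes by the deposited values with the spread of the other lines (difference -4.17, SE 1.09, adjusted p 0.0146). With values raised to the floor the difference was -3.30 and the adjusted p 0.0549, and without the third microglia array it was -1.82 with an adjusted p of 0.369, so the call rests on that array. Of all tested genes 9.32% were called in microglia.

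Among photoreceptors Clu was the mirror of Glul. The b2 arrays read 55.5, 251 and 121, then 77.7, 31.6 and 632, then 105, 17.5 and 379, against 433, 586 and 776 in Chrnb4 and 440.0, 714 and 686 in d4. Of the 9 rod arrays 8 lay below every cone array. The difference of b2 from the cone lines was called at -2.47 (SE 0.62, adjusted p 0.00222). It was called whichever single array was left out, but not with batch as a term, at -2.33 (adjusted p 0.098). ChAT starburst cells read 55.8, 38.3 and 35.2, against 18.8 to 784 on the other amacrine arrays, and their difference of -2.20 missed the threshold with an adjusted p of 0.0668, though it was called without the third Csf2rb2 array, at 0.00792.

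Apoe, the main lipid carrier of the central nervous system, was far higher in microglia than in any neuron line. Its 3 Csf2rb2 arrays read 2583, 4902 and 2744, against 38.0 to 1742 on the 75 other arrays, with no overlap. The class difference, again of 1 line with the spread of the others, was +4.20 (SE 0.89, adjusted p 0.00274). Below microglia came Drd4 (1077), Grik4 (659) and Crh (385), and the lowest were Gja10 (89.9), PV (77.0) and Igfbp2 (70.3). In ganglion cells the arrays read 1742, 859 and 836 in Drd4, 460.3, 1149 and 543 in Grik4, 557, 257 and 53.7 in Opn4 and 68.2, 49.2 and 136 in PV. Drd4 and Grik4 were above all PV arrays, and Opn4 spanned both.

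Microglia also had other genes of lipoprotein handling called. Of 9 tested genes on that list, Apoe, Apoc1 (an apolipoprotein, +2.27) and Lpl (lipoprotein lipase, +2.41) were called higher in microglia. Clu and Vldlr (the very low density lipoprotein receptor, -3.39) were called lower, Clu by the call that rests on 1 array. Of all tested genes 9.32% were called in microglia. Vldlr was called higher in photoreceptors, by 2.80, and Lpl lower there, at -1.05, where 6.36% of tested genes were called. In Crh cells Apoe was called higher than in the other amacrine lines (385 against 171, difference +1.17, SE 0.48, adjusted p 0.0427), where 18.3% of tested genes were called. The Crh arrays read 150.4, 809 and 471, within the 38.0 to 660 of the others except for the second, and without that array the difference was 0.64 with an adjusted p of 0.464.

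Dkk3 was the 1 member that was higher in amacrine cells. The 33 amacrine arrays ranged from 18.0 to 156 with a median of 48.0, against 12.9 to 67.9 with a median of 21.4 on the 45 others. The groups overlapped, though 12 of the 45 others were below every amacrine array. The class difference was +1.10 (SE 0.26, adjusted p 0.0117), where 2.77% of tested genes were called. It fell just under the size threshold without the Rgs5 line (0.92) and under cyclic loess normalization (0.98).

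Within amacrine cells Dkk3 had a high and a low line. Rgs5 read 156, 149.9 and 85.9, against 18.0 to 77.7 on the 30 other amacrine arrays, with no overlap, and was called at +1.61 (SE 0.20, adjusted p 4.01e-08) where 0.775% of tested genes were. The ChAT starburst line read 18.0, 20.0 and 23.5, against 28.9 to 156 on the others, again with no overlap, and was called at -1.35 (SE 0.20, adjusted p 1.26e-06) where 2.77% were. The other 7 amacrine lines lay between 32.6 in Fam81a and 56.2 in Igfbp2. In d4 cones Dkk3 (17.7, 12.9 and 16.8) was below all 12 other photoreceptor arrays, by -0.79 (adjusted p 0.00991), less than the size threshold. Of the 5 Dickkopf genes, all tested, no other was called in a class comparison, and Dkkl1, a Dkk3-like secreted protein, was called higher in Drd4 by 1.90.

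Vim, the filament protein of Müller glia that is also a known constituent of mouse horizontal cells, was highest in the Gja10 line. Its arrays read 996, 1018 and 1131, against 4.92 to 827 on the 75 other arrays, with no overlap. The class difference, of 1 line with the spread taken from the other classes, was +4.75 (SE 1.09, adjusted p 0.0314), where 1.21% of tested genes were called, and no other intermediate filament of the 7 tested was called in horizontal cells. The size stayed near this in each alternative fit, from 4.50 up, but the call was lost in some: the adjusted p was 0.070 with batch as a term, 0.0504 among batch 3 lines, and 0.0819 without the first Crh array. No other member was called in horizontal cells. There Clu read 628, 506 and 716, Glul 104, 141 and 132, Aqp4 10.9, 6.01 and 10.7, and Apoe 89.7, 131 and 61.8. The Clu line mean of 611 was below only that of Drd4, at 814. By limma the class difference was +2.00 for Clu (adjusted p 0.743), +1.06 for Glul and +0.39 for Aqp4. It was -2.02 for Apoe (adjusted p 0.529), -0.37 for Dkk3 and -0.25 for Kcnj10. The summed list of the other Müller glia genes was at its lowest median over all sets in Gja10, at 390.3. That sum weighs bright genes most, and Dbi and Car2 of the list had a median line mean of 145 and 120.

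Amacrine cells were called lower in Vim (25.4 against 81.6, difference -1.68, SE 0.50, adjusted p 0.0424), but this call turned on the horizontal line in its comparison. Without Gja10 the difference was -0.76 with an adjusted p of 0.43, and single arrays of 7 sets also ended the call, with an adjusted p of up to 0.132 without the first Crh array. Bipolar cells had a difference of -2.12 with an adjusted p of 0.0552, which passed the threshold on leaving out some single arrays, for example at 0.0292 without the third mGluR6 array. Within amacrine cells Chrna3 was called higher (75.8, 41.7 and 161, against 8.20 to 274 on the others, difference +1.86, SE 0.67, adjusted p 0.0472), where 7.87% of tested genes were called. That call was lost without 25 of the 78 single arrays, and without the third Chrna3 array the difference was +1.35 with an adjusted p of 0.288. Of 7 tested astrocyte markers 3 (Gja1, Fabp7 and S100b) were called higher in Chrna3 too, and their part was not tested.

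Gfap, the second filament protein, was not above 9.01 on any array. Its geometric mean lay between 6.66 in Drd4 and 4.80 in PV, a log2 range of 0.47 over the lines. Fitted without the filter on low values, it was called in no comparison, and the adjusted p among lines was 0.145. The lowest p of a line comparison, 0.0126 in Drd4, had an adjusted p of 0.0820. Other intermediate filaments were called in neurons instead: Nefl, Nefm, Ina and Prph, neuronal filament genes, were higher in ganglion cells by 4.14, 2.75, 2.54 and 2.26. Nefl, Nefm and Ina were called lower in photoreceptors, Nefl and Nefm in bipolar cells and Ina in microglia.

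**Figure D2:**
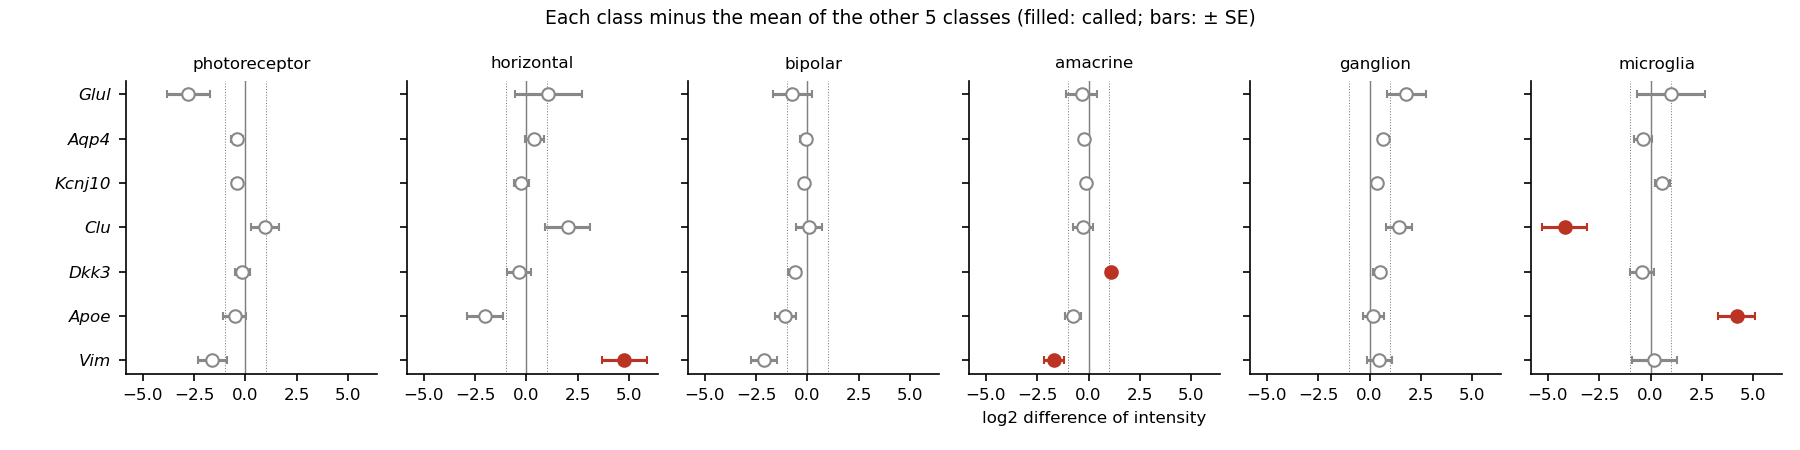
Log2 difference of each member between 1 class and the mean of the other 5 classes, with bars of 1 SE, and filled points where the difference was called. The 5 called points are Vim in horizontal cells (+4.75), Apoe (+4.20) and Clu (-4.17) in microglia, and Dkk3 (+1.10) and Vim (-1.68) in amacrine cells.

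Over the 6 class comparisons, 5 of 42 pairs of member and class were called by limma. They were 2 in microglia (9.32% of all tested genes called), 2 in amacrine cells (2.77%) and 1 in horizontal cells (1.21%). In bipolar cells 0 of 7 tested members were called, where 2.66% of tested genes were, with 2 members at an unadjusted p below 0.05. In ganglion cells the counts were also 0 and 2, with a background of 4.23%, and in photoreceptors 0 and 2, with a background of 6.36%. The 2 in ganglion cells were Clu at +1.42 (adjusted p 0.156) and Aqp4 at +0.68 (adjusted p 0.103).

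The ganglion class divided by line instead. In Drd4, Glul (+2.72, SE 0.82, adjusted p 0.0211), Vim (+2.63, SE 0.73, adjusted p 0.0118), Apoe (+2.32, SE 0.52, adjusted p 0.00204) and Aqp4 were called higher than in the other 3 ganglion lines. In PV, Vim (-3.39, SE 0.73, adjusted p 0.00112), Glul (-3.01, SE 0.82, adjusted p 0.0105), Apoe (-2.76, SE 0.52, adjusted p 0.000238) and Aqp4 (-1.11, adjusted p 0.0189) were called lower. Each is 4 of 7 tested members, where 6.34% of tested genes were called in Drd4 and 6.05% in PV. The 2 lines stand in each other's comparison, so these are not independent. For Vim the arrays read 827, 280.1 and 181 in Drd4, 169.9, 373 and 93.9 in Grik4, 171, 45.0 and 35.2 in Opn4 and 13.5, 15.2 and 17.1 in PV. The PV arrays were tight and below all 9 others, and the first Drd4 array was far above any other.

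Both results changed with the arrays and terms of the fit. Without the first Drd4 array, none of the 4 Drd4 differences was called by limma (Glul +1.95, Aqp4 +0.79, Vim +2.00 and Apoe +1.97, adjusted p 0.0832 to 0.400). In PV, Vim and Apoe were called whichever single array was left out. Glul there was not called without the second PV array (-2.62, adjusted p 0.0988), nor Aqp4 without any 1 of 5 arrays (adjusted p up to 0.105). With batch as a term the PV differences were -1.76 for Glul (adjusted p 0.68), -0.78 for Aqp4 (adjusted p 0.71) and -3.58 for Vim (adjusted p 0.158), and the Drd4 difference of Glul was +2.30 (adjusted p 0.0684). Grik4, though second in level for several members, had 0 of 7 called by limma and 1 at an unadjusted p below 0.05 (Apoe, +1.38, adjusted p 0.183), where 1.86% of genes were called, and Opn4 had 0 and 1, where 0.675% were.

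**Figure D3:**
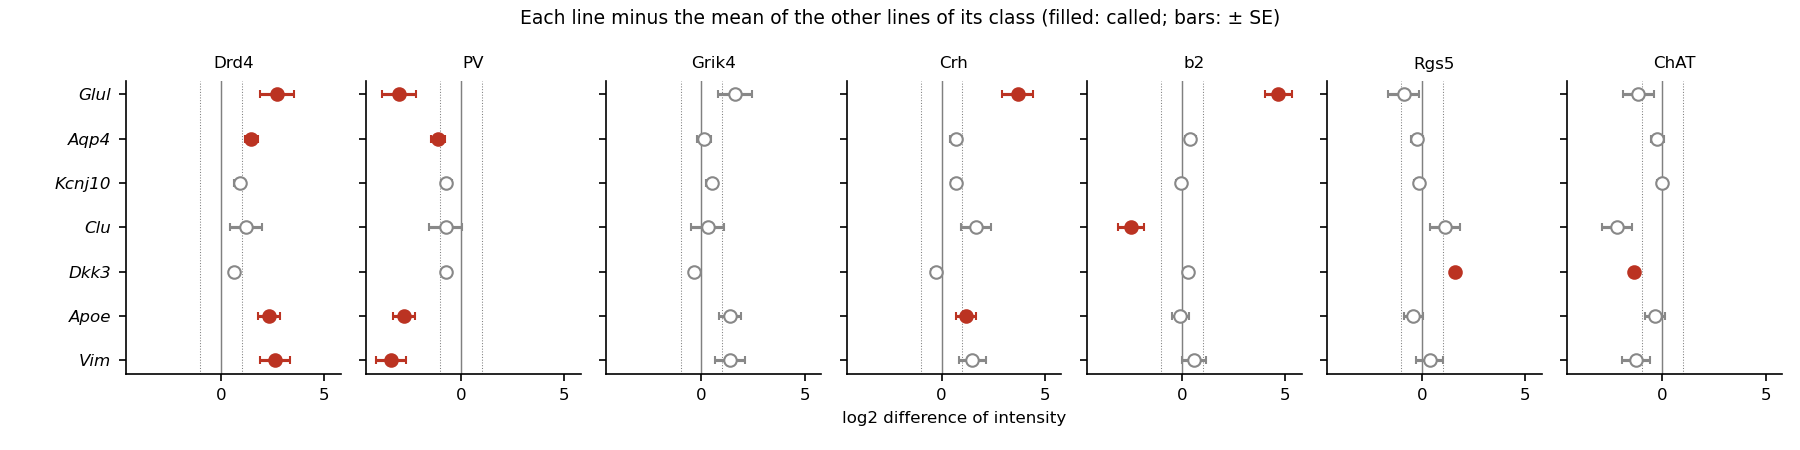
Log2 difference of each member between 1 line and the average of the rest of its class, for Drd4, PV, Grik4, Crh, b2, Rgs5 and ChAT, with bars of 1 SE, and filled points where the difference was called. Drd4 has Glul, Aqp4, Vim and Apoe called above 0, and PV has the same 4 called below 0.

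Of the other Müller glia genes, a list of 21, 19 were tested. In Drd4, where 6.34% of all tested genes were called, 10 were called higher and 1 lower, with a median difference of 1.08 against 0.04 over all tested genes. Rlbp1 (the retinaldehyde-binding protein CRALBP) rose by 2.97, Cp (ceruloplasmin) by 2.60, Car14 (carbonic anhydrase 14) by 2.57, Hes1 (a Notch target) by 1.66 and Slc1a3 (the glutamate transporter GLAST) by 1.03, and Col9a1 was lower. In PV, with a background of 6.05%, 9 were called lower and 2 higher (Col9a1 and Hes5), with a median of -1.09 against -0.04, and Rlbp1 was at -3.43. Rlbp1 read 1884, 579 and 275 in Drd4, 301, 909 and 130.0 in Grik4, 441, 58.9 and 18.8 in Opn4 and 14.5, 17.1 and 56.2 in PV. Its arrays followed those of Glul, with the first array the highest in Drd4 and Opn4 and the second in Grik4. In Crh, with a background of 18.3%, 7 were called higher and 2 lower, with a median of 0.38 against 0.12, and Rlbp1 was at +4.40. In Grik4, 3 were called higher (Id3, Id1 and Car14), where 1.86% of genes were called. In b2, 3 were (Rlbp1, Hes5 and Col9a1), a share near its background of 10.7%. In Gja10, where Vim was highest, the median sum of the list, which weighs bright genes most, was the lowest of all sets. Within sets 0 of the 19 had an r of at least 0.5 with Glul, where 0.086% of all tested genes did. With Aqp4 the count was 4 (0.887%), with Apoe 2 (0.430%) and with Clu 2 (0.278%). With Vim it was 1 (0.477%), with Kcnj10 1 (0.185%), and with Dkk3 and Gfap 0 each (0% and 0.0596%).

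Markers of other cell types were high on some of the same ganglion arrays. Summed rod markers were 1270, 231 and 208 in Drd4, 40.9, 162 and 41.9 in Grik4, 152, 43.5 and 96.5 in Opn4 and 12.6, 27.8 and 33.0 in PV. Summed bipolar markers were 987, 302 and 268 in Drd4, 108, 265 and 214 in Grik4, 148, 48.0 and 31.7 in Opn4 and 34.3, 36.2 and 40.7 in PV. The median over all sets was 91.9 for the rod sum and 52.1 for the bipolar sum. For rods, Drd4 lay above it on every array, Grik4 and Opn4 on both sides of it and PV below. For bipolar cells, Drd4 and Grik4 lay above it, Opn4 on both sides and PV below. The array with the most Glul was also the array with the most rod and bipolar marker signal in Drd4, Grik4 and Opn4. Summed microglia markers were 333, 110 and 129 in Drd4, 847, 2196 and 924 in Grik4, 229, 215 and 77.5 in Opn4 and 80.1, 79.3 and 67.6 in PV, and pigment epithelium markers reached 2038 in Grik4 replicate 2 and 550.0 in Drd4 replicate 1. Endothelial markers ran from 516 to 1043 in Grik4 and from 153 to 615 in Drd4, against 44.2 to 46.4 in PV. Such sums weigh bright genes most. Line means in Grik4 and Drd4 were 681 and 232 for Cldn5 of the endothelial list but 12.7 and 13.3 for Flt1. For Ttr of the pigment epithelium list they were 654 and 133, and for Rpe65 75.3 and 8.73.

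By counts of called markers, Drd4 had 4 of 5 bipolar, 2 of 7 rod, 2 of 5 pericyte, 2 of 7 astrocyte and 0 of 9 microglia markers higher than the other ganglion lines. The share of all tested genes called there was 6.34%. Grik4, with a share of 1.86%, had 8 of 9 microglia, 3 of 5 pericyte and 2 of 6 endothelial markers higher. PV, with 6.05%, had 5 of 9 microglia, 3 of 5 bipolar, 3 of 5 pericyte, 3 of 7 pigment epithelium and 2 of 7 rod markers lower. Ganglion markers themselves were summed at 1708 to 2853 in Drd4 and 2080 to 2525 in PV, with the lowest value on Drd4 replicate 1, the array of the highest Glul, Aqp4, Vim and Apoe. The astrocyte markers called in Drd4 were Gja1 and Aqp4, itself a member here. The astrocyte markers other than Aqp4 and Gfap were summed at 87.5, 77.5 and 72.0 in Drd4, against 45.0 to 58.3 in PV. Of these 6 genes, Gja1, S100b and Aldh1l1 had their highest line mean in Drd4 (24.6, 18.4 and 14.7), with S100b next in PV (14.2). Pax2, Pdgfra and Fabp7 were highest in Chrna3, Arc and Chrnb4, and Drd4 was not second for any of them. The part of other cells in the member differences was not tested.

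**Figure D4:**
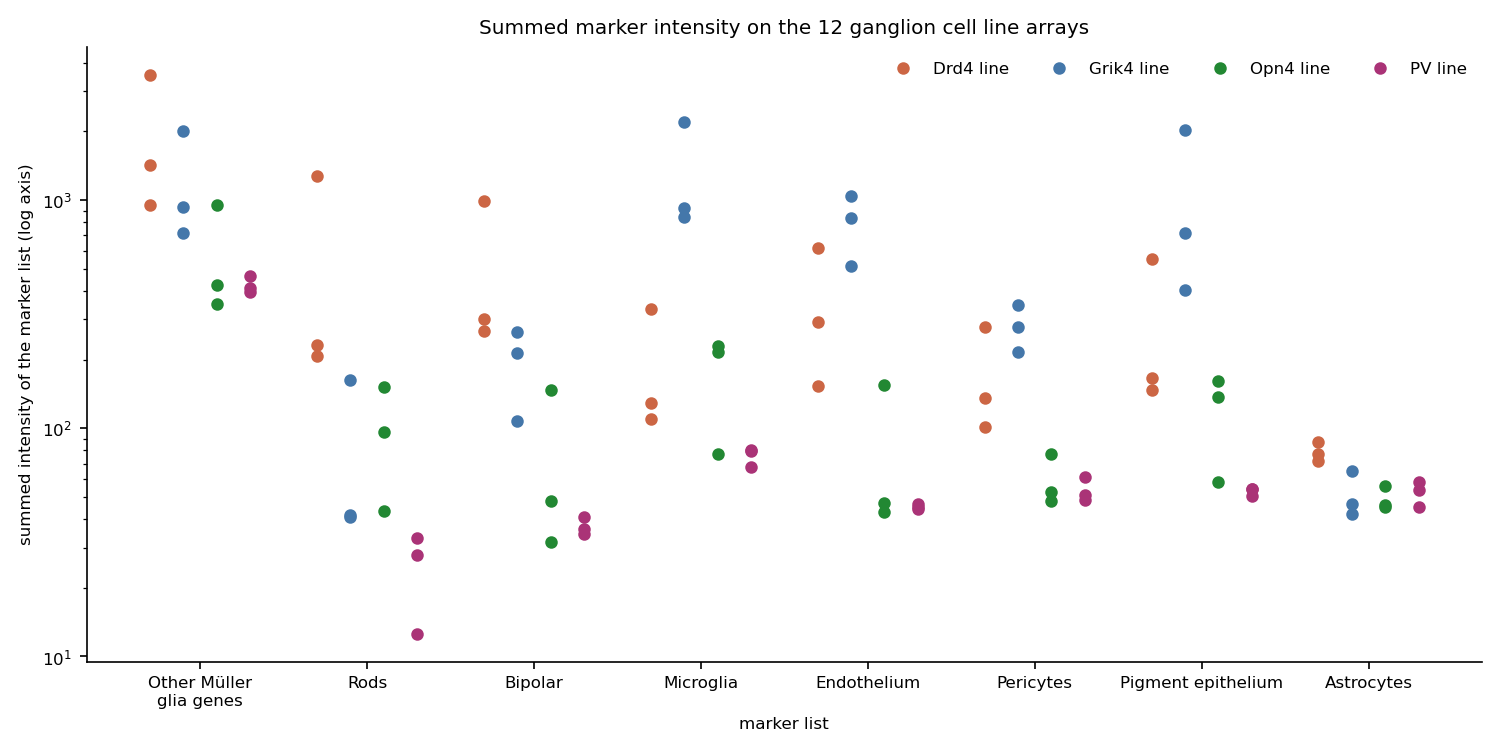
Summed intensity of 8 gene lists, none of which holds a member (the astrocyte list is without Aqp4 and Gfap), on the 3 arrays of each ganglion line (log axis), in Drd4, Grik4, Opn4 and PV. PV lies below every Drd4 array in each list shown but overlaps Opn4 in several, Drd4 replicate 1 is high for the other Müller glia genes and the rod and bipolar lists, and Grik4 is high for microglia and endothelium.

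Of the 20 line comparisons, 8 had a member called and 12 had none, with 16 calls among 140 pairs of member and line, 9 higher and 7 lower. Drd4 (6.34% of all tested genes called) and PV (6.05%) had 4 members called each, and b2 (10.7%) and Crh (18.3%) 2 each. ChAT (2.77%), Chrna3 (7.87%), Chrnb4 (5.05%) and Rgs5 (0.775%) had 1 each. Of the comparisons without a call by limma, Arc (1.24% of genes called), d4 (7.77%), and Fam81a (1.52%) had 2 members each at an unadjusted p below 0.05. Fbxo32 (0.841%), Ier5 (1.85%), Igfbp2 (1.44%), mGluR6 (2.56%) and Pcp2 (2.85%) had 1 each, and Kcng4 (0.841%) and Lhx4 (2.79%) had 0. In Arc the 2 were Clu, at +1.33 (adjusted p 0.108, and 0.0153 without the third Csf2rb2 array), and Glul, at +1.23 (adjusted p 0.190), and in Igfbp2 the 1 was Apoe, at -1.59 (adjusted p 0.0644, and 0.0344 without the first Crh array).

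Repeated sets of 1 line gave no called member with all arrays in the fit. The second Arc set minus the first had 0 of 7 called by limma and 0 at an unadjusted p below 0.05, where 0.053% of genes were called. The third minus the first had 0 and 1 (Dkk3, +0.58, where 0.457% were called), and the third minus the second 0 and 0 (0.0728%). For b2 the second set minus the first had 0 and 0 (2.08%), the single set minus the first 0 and 1 (Aqp4, +0.92, 1.19%) and the single set minus the second 0 and 1 (Aqp4, +1.12, 2.03%). Without the third array of the single set, the lowest of its 3 in Aqp4, that last difference was called at +1.55 (adjusted p 0.0405). The Arc line is the study's batch control, and over all 9 Arc arrays Clu read 278 to 433 and Glul 68.1 to 279. Over the 9 b2 arrays Clu spanned 17.5 to 632 and Glul 16.4 to 1009.6, with the widest spread of Glul inside sets.

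Within sets, some members rose and fell together from array to array. Over the 78 arrays, deviations from the set mean had a Pearson r of 0.56 between Apoe and Vim (Spearman 0.51, and 0.49 without the 2 farthest arrays), of 0.49 between Glul and Vim (0.45, and 0.49), and of 0.46 between Clu and Apoe (0.40, and 0.47). Dkk3 did not follow, with an r of 0.04 to Vim. Across the 22 line means, r was 0.73 for Apoe with Kcnj10 (Spearman 0.51, and 0.62 without the 2 farthest lines), 0.73 for Aqp4 with Kcnj10 (0.54, and 0.39), 0.71 for Aqp4 with Vim (0.65, and 0.59), 0.69 for Glul with Kcnj10 (0.50, and 0.48), 0.66 for Glul with Aqp4 (0.50, and 0.44) and 0.59 for Glul with Vim (0.54, and 0.49), among 28 pairs. These are descriptions, since arrays of a set share a line and a sort, and all values share 1 normalization.

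**Figure D5:**
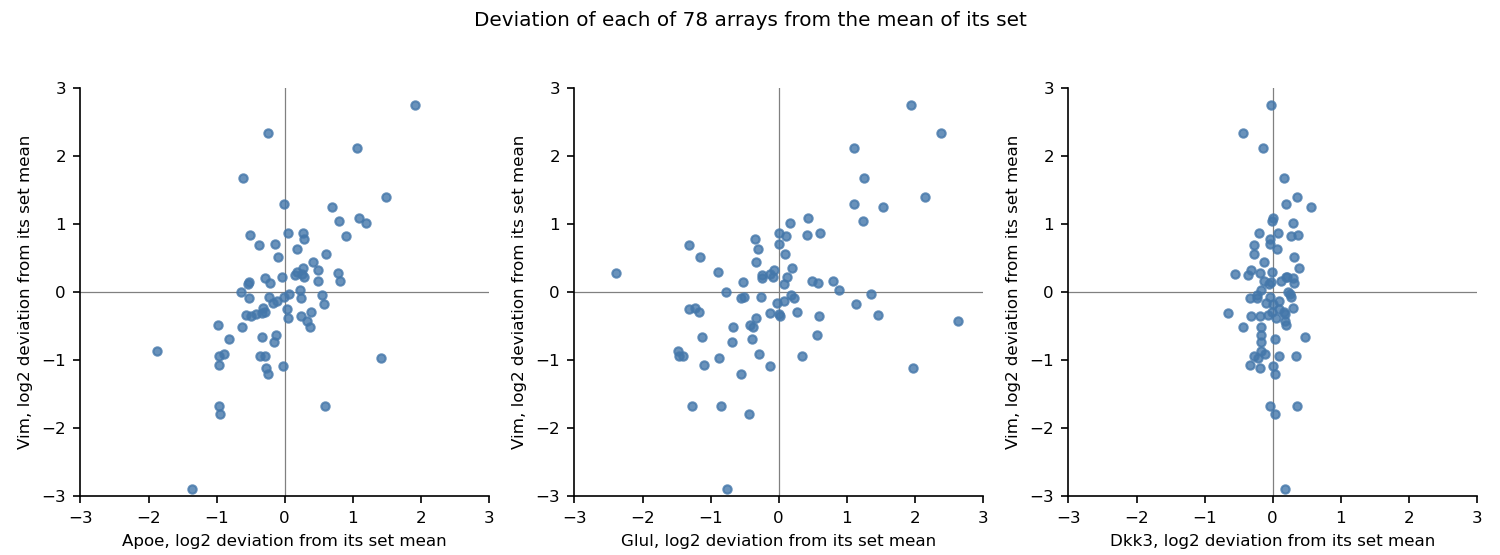
Deviation of log2 intensity from the mean of its set on each of the 78 arrays, for Apoe, Glul and Dkk3 (one panel each) against Vim. Apoe and Glul rise with Vim (Pearson r 0.56 and 0.49) and Dkk3 does not (0.04).

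The genes whose pattern over the 22 line means was most like each member's were Rlbp1 (r 0.85), Abca8a (0.82) and Iars (0.80) for Glul. For Kcnj10 they were Hes1 (0.91), Upb1 (0.91) and Fkbp9 (0.88), and for Aqp4 Cyp26a1 (0.90), Sbspon (0.90) and Kcng3 (0.88). Apoe was followed most closely by Sparc (0.90), Selenop (0.90) and Cd36 (0.89), and Vim by P2ry14 (0.89), Copz2 (0.88) and Utrn (0.86). For Dkk3 they were Ankrd55 (0.86), C1ql2 (0.86) and Gad2 (0.83), the last a GABA-synthesizing enzyme of amacrine cells, and for Clu Dynlt3 (0.78), Eno2 (0.78) and Mtmr1 (0.77). Gfap, within its narrow range, had Dbt (0.75), Gm10522 (0.73) and Sele (0.67). Of these, Rlbp1, Abca8a and Hes1 are on the list of other Müller glia genes.

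Genes linked to gliosis, a list of 10 of which 8 were tested, had at most 2 called in any comparison, the examples here being chosen after their values were seen. Cebpd and Stat3, transcription factors of the acute-phase response, were higher in microglia by 2.81 and 1.51, where 9.32% of all tested genes were called. Serpina3n, a secreted protease inhibitor, and Cp were higher in Crh by 2.11 and 1.76, with a background of 18.3%. Cp was higher in Drd4 by 2.60 (6.34%) and lower in PV, and Serpina3n was lower in Grik4, at -2.94 (1.86%). Timp1, an inhibitor of metalloproteinases, was called higher in bipolar cells by 1.14 (2.66%). These counts of 1 or 2 of 8 genes are read beside many comparisons, and nothing is drawn from them about the list.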

How the data were processed

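Total RNA of 200 sorted cells per sample was hybridised to 1 array each (78 arrays, 26 sets, 22 lines). Per the submitters' processing notes the authors used RMA through oligo in R 2.11.1, and the deposited intensity values are linear, with the same sorted values on every array. A fixed floor ends their low tail, with 10.5% of values at or below it. Probe sets were named through the platform annotation (19446 of 22347 had 1 symbol, 735 several, 2166 none listed), and the brightest probe set stood for a gene. Log2 values were fitted with limma 3.58.1 in R 4.3.3 (trended variances, Benjamini-Hochberg over 15102 genes) after tests on simulated data. The design had taken the values to be on a log2 scale, and they were log-transformed first. Arrays have no read depth, and their number limits the precision. Named genes are the 8 members, the 3 genes of highest r to each and called members of the lists. The members and lists were chosen with earlier results of these data known. Replicate numbers did not pair samples (mean residual correlation 0.00021). Batch is as labelled: 1 (24 arrays), 2 (12), 3 (33), none for 9, with the second Arc set taken as batch 2. Alternatives were the filter, the floor, cyclic loess, all probe sets, batch, replicate as a block, and leaving out lines or replicates. Leaving out single arrays or sets of low agreement was added after seeing the data. Sequences are from RefSeq tables of GRCm38.p6, and no genome was used here.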

Additional observations from a re-analysis of the deposited data

Results flagged for a closer look

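Of 40 groups of arrays checked for a lone extreme value, 1 was marked. Among the 9 Arc arrays, replicate 3 of the second set had the lowest Clu, at 278, and the next was 356, a gap of 0.556 of the whole range. Chance marks about 1 group in 20 by this check, so a single mark among 40 is no more than chance would give.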

How the results depend on the processing

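Of the alternative values computed for the named differences, 263 kept their direction and their side of the threshold, 74 kept the direction but lost the call, and 0 reversed. The class comparisons had 5 calls, against 3 with batch as a term and 0 among batch 1 lines, which hold no horizontal or microglia line. Leaving out 1 line gave 2 (without Csf2rb2) to 7 (without PV), leaving out 1 replicate of every set 3 to 4, and leaving out single arrays 3 (the third of Csf2rb2 or the first of Crh) to 6. The line comparisons had 16 calls, against 9 with batch as a term, 10 to 14 without 1 replicate of every set, 11 (without the first Drd4 array) to 22 (without the first Crh array) on leaving out single arrays, and 15 with the replicate block, which changed no other call than Glul in Chrnb4. The test among lines called 7 members, and 5 to 7 without a replicate. Repeated sets gave 0 calls by limma under the other alternatives, and 1 (Aqp4, b2 single minus second) without the third array of the single set. Counts of called genes moved by over 1.5 times mainly with fewer arrays: without replicate 1 of every set, Crh gave 4476 against 2769, Drd4 332 against 958, Grik4 884 against 281 and horizontal cells 121 against 182. Without replicate 2, Crh gave 1265, PV 220 against 913, Grik4 87, ChAT 265 against 418 and Rgs5 56 against 117. With batch as a term, PV gave 83, Chrnb4 1220 against 763 and Chrna3 724 against 1189. The cause of each was not tested. Signal over background limits Aqp4, Kcnj10 and Gfap, whose medians lay below 9.01.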
